A study of Gallus gallus with 71 samples.

Results

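The genes described here are the 100 whose mean level at hour 12 of a heat challenge stood highest above the earlier hours in every one of 3 brain nuclei of broiler chicks. Levels were in CPM (the count of a gene as a share of its library total, scaled to 1 common total), taken as log2(CPM+1), for the 12786 of 30108 genes with a mean of at least 5 CPM. In each nucleus the larger of the hour 0 and hour 2 means was taken from the hour 12 mean, over both treatments, and the smallest of the 3 differences was the score of the gene. There were 621 genes with a score above 0, of which the 100 with the highest scores are the members. The hour 12 values therefore chose the members, and every difference between hours below is a description with no test. The members were named by Ensembl identifiers, and none of the 100 was among the 93 identifiers that the study's tables pair with a symbol, so no function, position or sequence is given for any member.

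Heat raises body temperature in young broilers, whose thermoregulation is immature after hatch, and the brain answers with panting, vasodilation, reduced feeding and activation of the stress axis. The pre-optic anterior hypothalamus (POAH) integrates thermal information from skin and core. The paraventricular nucleus (PVN) holds the neurons that release corticotropin-releasing hormone and arginine vasotocin, the avian counterpart of vasopressin, onto the pituitary. The nucleus of the hippocampal commissure (nCPa) lies in the septum and is known in chickens as a site of corticotropin-releasing hormone neurons that respond early to stress. Transcripts that are high many hours into a challenge are usually discussed as later responses, in contrast to immediate early genes, but the same hours also carry growth, feeding and time of day.

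RNA was sequenced from punches of these nuclei in Hubbard x Cobb-500 chicks. Control eggs were incubated at 37.5 °C, and eggs given embryonic heat conditioning (EHC) were held at 39.5 °C for 12 h a day from embryonic day 7 to 16 and otherwise at the control temperature. On day 4 after hatch chicks of both treatments, kept until then at 30 °C, were heated at 36 °C and sampled before the challenge (hour 0) or after 2 or 12 h of it, so that every chick of hours 2 and 12 had been heated, and the length of the heat, age and time of day cannot be told apart. Control and EHC eggs were in separate incubators, so treatment and incubator cannot be told apart. Sequencing gave 71 libraries (nCPa 24, POAH 24, PVN 23), 4 for each nucleus, treatment and hour (2 labelled female) except EHC PVN at hour 12, which had 3 (1 labelled female).

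Library totals ran from 910033 to 9370799 counts, so that 5 CPM stood for 4.55 counts in the smallest library and 46.9 in the largest. Of 72 markers of neurons, glia, vessels, blood and the PVN, 1 had an identifier in the sources used, so the dissected nuclei were not checked against markers, and in a punch fewer cells of a type and less RNA per cell cannot be told apart. Over 70 genes read almost only in libraries labelled female, 5 libraries of hour 2 went against their sex label: EHC replicate 1 of each nucleus, labelled male, and control replicate 3 of the POAH and of the PVN, labelled female. None of the 70 genes was a member. With those 5 libraries left out of the rule, 73 of the 100 members were chosen again. The 11 mitochondrially encoded genes that could be read set 3 libraries apart. In the nCPa of control chicks at hour 12 they took 5.95, 4.08 and 6.82% of the counts in replicates 2, 3 and 4 and 0.919% in replicate 1, against 1.18 to 1.86% in EHC chicks of that nucleus and hour and at most 2.46% in any other library. With those genes out of the library total 91 members were chosen again, and with those 3 libraries out of the rule 56.

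The rise that defined the members was small in most of them. The highest score was 0.525 on the log2 scale (1.44-fold), the 10th was 0.257, the 50th was 0.132 and the 100th was 0.093 (1.07-fold). Scores of the same kind for genes highest at hour 0 ran from 0.93 to 0.262 over their first 100, and for genes highest at hour 2 from 0.99 to 0.109, so the list of hour 12 had the lowest scores of the 3, first and last. The nCPa set the score of 45 members, the POAH of 33 and the PVN of 22. Just inside the list stood ENSGALG00010006261 at 0.0943, ENSGALG00010009088 at 0.0939 and ENSGALG00010010382 at 0.0934. Just outside stood ENSGALG00010021741 at 0.0926, ENSGALG00010015072 at 0.0914 and ENSGALG00010023699 at 0.0896. The 100th gene and the next differed in the fourth decimal, and nothing in the values separates members from the genes that follow them. Of the 100, 56 were chosen again without set 48 of the library numbers, 61 without set 49, 64 without set 58 and 65 without set 42 (all control, hour 12), and 64 without set 53 and 65 without set 50 (both EHC, hour 12), and 72 to 96 without any other set.

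The median hour 12 difference of the members was 0.198, 0.211 and 0.241 (nCPa, POAH, PVN), where the median of all 12786 genes was -0.178, -0.049 and -0.009. Against this stood the spread within groups, whose median over members was an SD of 0.506, 0.509 and 0.456 on the same scale, above the 0.333, 0.336 and 0.306 of all genes. The hour 12 difference was larger than the within-group SD of the gene for 8, 6 and 7 members (nCPa, POAH, PVN). No member had all its hour 12 libraries above all its earlier libraries in any nucleus, a pattern that 0% of all genes showed. Members were low to moderate in abundance, with means of 5.01 to 607.7 CPM and a median of 16.6 CPM against 34.3 CPM for all genes. A mean of at least 100 CPM was reached by 9 members, against 19.3% of all genes, and 8 members had a count of 0 in at least 1 library.

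The mean of the 100 members separated hour 12 in part. In the nCPa it ran from 3.95 to 4.27 at hour 0 (median 4.08), from 3.81 to 4.51 at hour 2 (median 4.08) and from 4.29 to 4.61 at hour 12 (median 4.43), and 1 of 8 hour 12 libraries was above every earlier one. In the POAH it ran from 3.95 to 4.46, from 3.96 to 4.48 and from 4.41 to 4.79 at the same hours, and 6 of 8 hour 12 libraries were above every earlier one. In the PVN it ran from 3.86 to 4.26, from 3.54 to 4.26 and from 4.26 to 4.57, and 6 of 7 were above every earlier one. The 1 nCPa library of hour 2 at 4.51 was from an EHC chick and was higher than all but 1 of the hour 12 libraries of that nucleus. Members together took between 0.276 and 0.568% of the counts of a library.

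**Figure D1:**
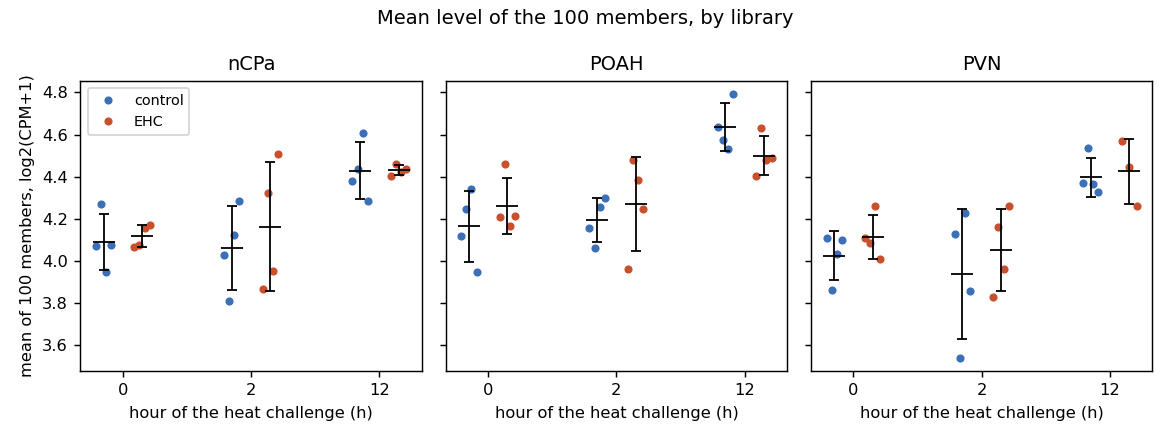
Mean log2(CPM+1) of the 100 members in each library (points), by hour of the heat challenge (h), nucleus and treatment, with the group mean and SD (bars, n = 4, and 3 for EHC PVN at hour 12). Hour 12 libraries sat between 4.26 and 4.79. For each nucleus and treatment the SD was widest at hour 2 (up to 0.31), except in the control POAH (0.17 at hour 0 and 0.11 at hour 2).

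The member with the highest score, ENSGALG00010002599, had 3.84 to 73.03 CPM in the nCPa at hour 0 (median 18.2), 3.19 to 36.6 at hour 2 (median 7.81) and 9.70 to 56.9 at hour 12 (median 30.99). The POAH gave medians of 12.6, 8.94 and 29.5 CPM at the 3 hours, and the PVN 14.4, 4.09 and 27.7 CPM. The highest library of the nCPa was one of hour 0, so the hours overlapped, and what set hour 12 apart was that it held no library under 9.70 CPM. The level at hour 2 was the lowest of the 3 in every nucleus.

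ENSGALG00010002616, the next in score, followed the same order. Its nCPa libraries ran from 7.36 to 42.7 CPM at hour 0 (median 11.4), from 2.31 to 31.2 at hour 2 (median 8.28) and from 13.3 to 37.1 at hour 12 (median 23.8). Its POAH medians were 14.7, 9.78 and 25.1 CPM and its PVN medians 11.8, 6.07 and 24.2 CPM. Over all 71 libraries its deviations from the group means ran with those of ENSGALG00010002599 (r = 0.86, across libraries of which up to 3 may come from 1 chick).

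Levels of the other members of the first 10 overlapped between the hours as well. ENSGALG00010008261 had medians of 14.4, 10.1 and 23.1 CPM in the nCPa at hours 0, 2 and 12, with 2.91 to 41.9 CPM at hour 12. ENSGALG00010004063 had medians of 17.3, 15.6 and 30.6 CPM there, with 4.49 to 100.2 CPM at hour 12. These members kept a wide spread within hour 12. ENSGALG00010026053 was the steadiest of the first 10, with an SD within groups of 0.31 to 0.367 on the log2 scale. It had 10.8 to 26.2 CPM at hour 0 (median 15.4), 12.3 to 29.4 at hour 2 (median 20.0) and 20.3 to 30.2 at hour 12 (median 23.9) in the POAH, and its hour 12 differences of 0.379, 0.291 and 0.453 in the nCPa, POAH and PVN were close to that SD.

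ENSGALG00010002949 showed the widest swings of the first 10 members. It fell into 2 ranges, with 30 libraries at 23.9 CPM or more and 41 at 13.1 CPM or less, a division set after the values were seen. In the nCPa, control chicks had 1.91, 2.22, 5.12 and 71.5 CPM at hour 0, 4.24, 4.43, 5.44 and 12.1 CPM at hour 2, and 3.63, 4.83, 65.4 and 82.6 CPM at hour 12. EHC chicks had 3.10, 6.90, 25.7 and 101.3 CPM, then 5.93, 58.02, 69.6 and 77.9 CPM, then 3.82, 8.96, 57.3 and 64.6 CPM. Within a group libraries were thus high or low, with few between, and the hour 12 mean was higher because more of them were high.

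The library numbers in the labels run in 25 sets of up to 3, mostly with 1 library of each nucleus. The study took all 3 nuclei from each chick, but no label says which chick a library came from, and over all genes the libraries of a set correlated above 0.1 in 51 of 68 pairs, so a set is not shown to be a chick. The high or low level of ENSGALG00010002949 was shared by the libraries of a set in 24 of 25 sets, 10 with all libraries above 20 CPM and 14 with all below. At hour 0, 3 of 9 sets were high (1 control and 2 EHC), at hour 2, 3 of 8 (all EHC), and at hour 12, 4 of 8 (2 control and 2 EHC). The hour 12 rise of this member was thus 1 more high set than at each earlier hour.

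Sharing within sets was common near the top of the list. As a description, the correlation of deviations from the group means over 22 to 24 sets was above 0.5 in all 3 pairs of nuclei for 16 of 100 members, against 5.12% of all genes, and for 7 of the first 10, those ranked 1 to 7. For ENSGALG00010002949 it was 0.960, 0.961 and 0.947, and for ENSGALG00010002599 it was 0.900, 0.856 and 0.855 (nCPa with POAH, nCPa with PVN, POAH with PVN). The other 9 ranked lower, and over all 100 members the median correlations were 0.22, 0.19 and 0.20, where all genes had 0.29, 0.18 and 0.22. ENSGALG00010015734, ranked 9, had -0.278, -0.254 and 0.243. Where a level is shared by the libraries of a set, the 3 nuclei that enter the score are not independent of each other. A score that is the smallest of 3 differences favours genes whose nuclei move together. The number of such genes among the members and near the top is therefore not independent of the rule.

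**Figure D2:**
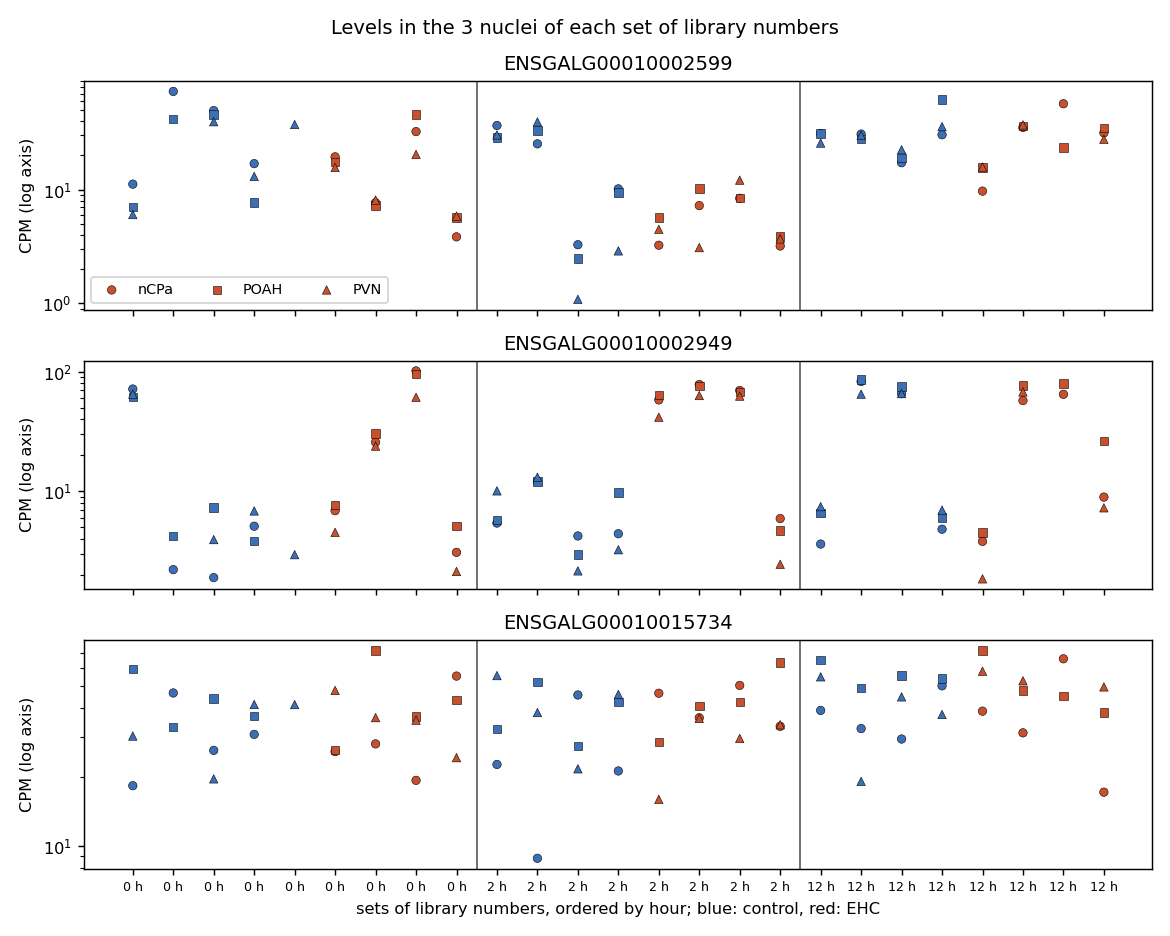
CPM (log axis) of 3 members in the libraries of each set of library numbers, ordered by hour of the challenge, with the nucleus as the shape and the treatment as the colour. In ENSGALG00010002599 and ENSGALG00010002949 the points of a set lie close together over a wide range between sets, and in ENSGALG00010015734 they do not.

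Members did not move together as 1 group. The median correlation between members over the 71 libraries, after the group means were removed, was 0.07, with 228 of 4950 pairs above 0.5 and 16 below -0.5. The same values are not given for all genes, so members are not compared with other genes in this. The closest pairs were ENSGALG00010017591 with ENSGALG00010020196 (r = 0.92) and ENSGALG00010003742 with ENSGALG00010008321 (r = 0.88), which are given as descriptions because these libraries share chicks and depth.

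The size of the hour 12 difference also varied between nuclei. It was most alike in ENSGALG00010009705 (0.119, 0.101 and 0.118 in the nCPa, POAH and PVN), ENSGALG00010016946 (0.121, 0.148 and 0.114), ENSGALG00010011144 (0.098, 0.127 and 0.142), ENSGALG00010028165 (0.198, 0.162 and 0.206) and ENSGALG00010019432 (0.103, 0.142 and 0.148). These were all small differences, and each was below the within-group SD of its gene. It was least alike in ENSGALG00010021447 (0.12, 0.941 and 0.26), ENSGALG00010012131 (0.156, 0.903 and 0.88), ENSGALG00010012414 (0.214, 0.395 and 0.988), ENSGALG00010004654 (0.136, 0.718 and 0.098) and ENSGALG00010028090 (0.847, 0.252 and 0.425). Of those 5, only ENSGALG00010028090 in the nCPa had a difference above the within-group SD, which was 0.661.

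The hour 12 difference was also read within each treatment. In control chicks 76, 83 and 82 members had an hour 12 difference above 0 in the nCPa, POAH and PVN, against 13.4, 38.9 and 38.6% of all genes. In EHC chicks the counts were 70, 64 and 75, against 34.0, 35.6 and 53.1% of all genes. All 3 nuclei were above 0 in control chicks for 55 members (4.02% of all genes) and in EHC chicks for 40 (7.75% of all genes). They were above 0 in both for 14, for which no share of all genes was counted. These counts use the values that chose the members, so nothing is read from their excess over all genes. The 14 included ENSGALG00010002616, at 0.061, 0.612 and 0.575 in control and 0.958, 0.691 and 1.036 in EHC chicks (nCPa, POAH, PVN), and ENSGALG00010018549, at 0.303, 0.602 and 0.149 and at 0.143, 0.328 and 0.402. The member with the highest score, ENSGALG00010002599, was at -0.119 in control and 1.169 in EHC chicks in the nCPa, and ENSGALG00010002949 was at 1.294, 1.19 and 1.215 in control and at -0.908, -0.263 and -1.242 in EHC chicks.

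When the same rule was run on control libraries alone, 26 of the 100 members were chosen again, and on EHC libraries alone 18. The 100 genes chosen on control chicks and the 100 chosen on EHC chicks had 0 genes in common. Unrelated lists of 100 from 12786 genes would also share few or none, so nothing about treatment is read from this count. Of the 100 from control chicks, 1 had all 3 differences above 0 in EHC chicks, against 7.75% of all genes. Their medians there were -0.343, -0.194 and -0.175 in the nCPa, POAH and PVN. Of the 100 from EHC chicks, 2 had all 3 above 0 in control chicks, against 4.02% of all genes, with medians of -0.234, -0.123 and -0.118. The medians of all genes were -0.284, -0.067 and -0.063 in control chicks and -0.115, -0.07 and 0.018 in EHC chicks. Taking off the larger of 2 means pulls this difference below 0, more so in genes of wide spread. The 100 members had a wider spread than all genes, and the spread of these 2 lists was not compared with that of all genes. Nothing about treatment is therefore read from these shares and medians.

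**Figure D3:**
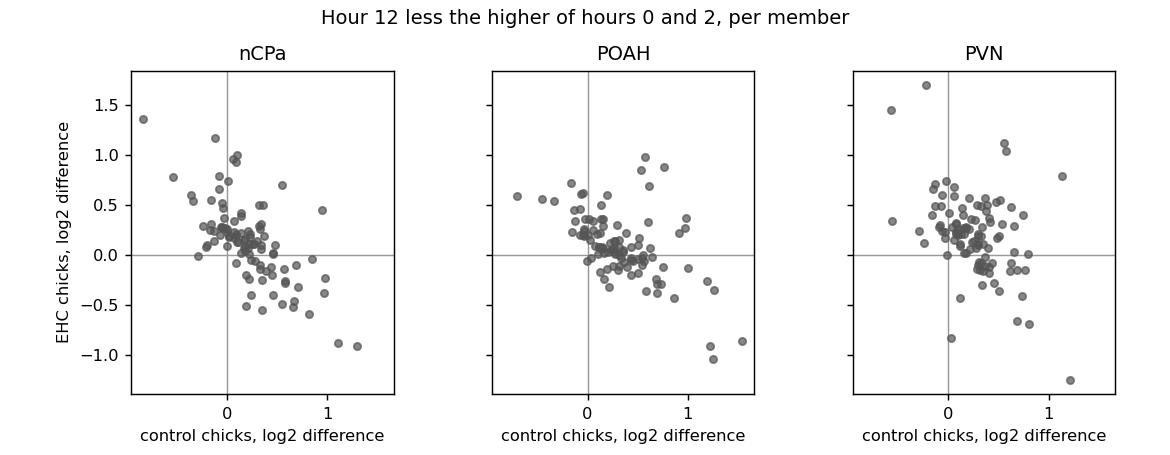
Hour 12 mean less the higher of the hour 0 and hour 2 means, in log2(CPM+1), for each of the 100 members (points) in control chicks (horizontal axis) and EHC chicks (vertical axis), by nucleus. Points in the upper right quadrant were above 0 in both treatments, and 1 point in each panel was below 0 in both.

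Treatment itself was tested at hour 12. The rule averaged the treatments and did not use their difference, but it was run on the same libraries. Where treatments differ in spread or number of libraries, this contrast and the difference of the rise below are not fully independent of the choice. In the nCPa at hour 12 the SD of the members' mean was 0.14 in control and 0.02 in EHC libraries. In the PVN the EHC group had 3 libraries and the control group 4. In the nCPa no member differed between EHC and control chicks in edgeR's quasi-likelihood test (adjusted p, by Benjamini and Hochberg over all genes tested, up to 0.1), where 0.00983% of all genes did. In the POAH the count was also 0, against 0% of all genes, and in the PVN 0, against 0.255%. At an unadjusted p under 0.05 there were 19, 9 and 13 members in the nCPa, POAH and PVN, against 11.1, 6.27 and 10% of all genes, and DESeq2 called 7, 0 and 1 members, against 1.65, 0.187 and 1.1% of all genes. The median log2 fold change of the members (EHC against control) was -0.16, -0.14 and -0.03, and that of all genes -0.01, -0.01 and 0. Without the 3 control libraries of high mitochondrial share the nCPa medians were 0.08 for members and 0.03 for all genes, with 1 control library left.

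In the nCPa at hour 12 the smallest p belonged to ENSGALG00010004063. Control libraries had 4.49, 8.73, 8.85 and 26.1 CPM, and EHC libraries had 35.0, 46.5, 66.7 and 100.2 CPM. All 4 EHC libraries were above all 4 control libraries, by 2.26 on the log2 scale in edgeR (SE 0.31, adjusted p = 0.13). DESeq2 called it (2.3, adjusted p = 1.3e-07), and edgeR did with all libraries of the nucleus in 1 model (2.24, adjusted p = 0.086). Without the 3 control libraries of high mitochondrial share, which leaves 1 control library, the difference was 2.12 (SE 0.42, adjusted p = 0.44 from edgeR). In the POAH the groups overlapped, at 12.1 to 53.2 CPM in control and 20.1 to 85.7 CPM in EHC libraries. Complete separation, with every EHC library above every control library, was seen for 5, 1 and 3 members (nCPa, POAH, PVN). It was seen for 7.09, 1.35 and 9.92% of the 12786 genes with a mean of at least 5 CPM. The reverse was seen for 3, 2 and 4 members, against 2.41, 1.37 and 4.43% of those genes.

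ENSGALG00010015505, ENSGALG00010002472 and ENSGALG00010009043, named after their values were seen, leaned the other way. In the PVN at hour 12 ENSGALG00010015505 had 151.0, 160.4, 168.4 and 173.7 CPM in control and 97.3, 111.6 and 118.3 CPM in EHC libraries, with no overlap (log2 fold change -0.64, SE 0.11, adjusted p = 0.12 from edgeR). DESeq2 gave an adjusted p of 0.0031 for it. In the nCPa at hour 12 ENSGALG00010009043 had 16.5, 30.5, 33.1 and 33.4 CPM in control and 10.2, 14.4, 14.8 and 17.5 CPM in EHC libraries, so that the lowest control library lay within the EHC range (-1.19, SE 0.25, adjusted p = 0.23 from edgeR). DESeq2 gave an adjusted p of 0.026 for it. Without the 3 control libraries of high mitochondrial share the difference was -0.48 (SE 0.36, adjusted p = 0.73 from edgeR).

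The difference of the hour 12 rise between treatments (EHC less control at hour 12, less the mean of the same at hours 0 and 2) passed the threshold in edgeR for 0 members in each nucleus, against 0.854, 0.216 and 0.0982% of all genes in the nCPa, POAH and PVN. At an unadjusted p under 0.05 there were 20, 12 and 17 members, against 14.3, 13.1 and 12.6% of all genes, and DESeq2 called 8, 3 and 2, against 3.34, 1.59 and 1.22%. The estimate was below 0 for 68, 73 and 58 members, with medians of -0.24, -0.23 and -0.11 on the log2 scale where all genes had -0.02, -0.05 and -0.05. The nCPa lean reversed without the 3 control libraries of high mitochondrial share, with a median of 0.14 where all genes had 0.05. That fit rests on 1 control library at hour 12. The call count of 0 in the nCPa rested on single libraries: without control replicate 1 of hour 12 it was 9 (1.99% of all genes), and without EHC replicate 3 of hour 0 it was 5 (1.94%). Without that same control library, the 1 of low mitochondrial share in its group, 6 members were called between EHC and control chicks at hour 12 (0.747% of all genes) and 2 over all hours (0.206%), in place of 0. Without control nCPa replicate 3 of hour 12, 1 member was called at hour 12 in the nCPa (0.0197%), and without control PVN replicate 3 of hour 12, 1 in the PVN (0.359%). The fits without the 3 control libraries of high mitochondrial share had 1 control library for hour 12. That library is assumed to vary like the other groups, so no counts of members called are given for these fits. ENSGALG00010017591 and ENSGALG00010020196, picked out by such a fit, had differences of the rise of -4.66 and -3.00 on the log2 scale, which rest on that library.

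ENSGALG00010002472 was among the 3 members with the smallest p of this difference in each nucleus. In the nCPa its control libraries had 10.6 to 17.4 CPM at hour 0, 5.98 to 13.8 at hour 2 and 9.06, 21.2, 24.9 and 25.3 CPM at hour 12. Its EHC libraries had 7.86 to 14.3 CPM, then 13.8 to 18.2 CPM, then 9.70, 9.71, 10.5 and 12.2 CPM. The control libraries of hour 12, but for 1, were thus above all others, and the EHC libraries of hour 12 were within the range of hour 0. The log2 difference was -1.28 (SE 0.35), -1.17 (SE 0.37) and -1.65 (SE 0.45) for nCPa, POAH and PVN, with adjusted p of 0.12, 0.22 and 0.18 from edgeR, and DESeq2 called it in the nCPa (adjusted p = 0.045) and the PVN (adjusted p = 0.072). Without the 3 control libraries of high mitochondrial share, which are the 3 high ones, its difference in the nCPa was -0.13 (SE 0.43, adjusted p = 0.93 from edgeR), and EHC against control at hour 12 was 0.07 (SE 0.40).

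Over all hours, EHC against control, edgeR called 0 members and 0% of all genes in each nucleus. There were 12, 9 and 4 members at an unadjusted p under 0.05 in the nCPa, POAH and PVN, against 7.74, 4.51 and 4.29% of all genes. DESeq2 called 1, 0 and 0 members, against 0.177, 0 and 0% of all genes. The 1 was ENSGALG00010011223 in the nCPa, at a log2 fold change of 0.97 in edgeR (SE 0.22, adjusted p = 0.27), EHC against control, and 0.96 in DESeq2 (adjusted p = 0.032).

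Read by labelled sex, 36 members had all 3 hour 12 differences above 0 in females (1.99% of all genes) and 60 in males (9.65% of all genes). In both it was 12, for which no share of all genes was counted. As by treatment, the values that chose the members enter these counts, and nothing is read from their excess over all genes. In the PVN the difference was larger in males for all but 26 members, with medians of 0.037 in females and 0.328 in males where all genes had -0.116 and 0.021. The libraries against their sex label, all of hour 2, were kept in these values under that label. In the nCPa and POAH 48 members each had the larger difference in females. ENSGALG00010002599 was at -0.195, -0.148 and 0.117 in females and at 1.245, 1.794 and 1.499 in males (nCPa, POAH, PVN), and ENSGALG00010002949 had the opposite order, at 1.375, 1.394 and 1.11 and at -0.792, -0.017 and -0.327. The members above 0 in all nuclei, both treatments and both sexes were ENSGALG00010002616 and ENSGALG00010015927. The 100 genes chosen on female libraries alone and the 100 chosen on male libraries alone had 1 gene in common. Unrelated lists of that length would also share few or none, so nothing about sex is read from this count. Whether the rise at hour 12 differed between the sexes was tested, and edgeR called 0 members and 0% of all genes in each nucleus. There were 7, 7 and 8 members at an unadjusted p under 0.05, against 3.49, 9.66 and 4.09% of all genes. DESeq2 called 0 members in each nucleus, against 0.0442, 0 and 0% of all genes (nCPa, POAH, PVN). Without the libraries against their label edgeR also called 0 members and 0 of all genes in each nucleus.

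Level by sex, over all hours, differed for few members. In the nCPa 3 members differed between females and males in edgeR, all lower in females, against 5.04% of all genes (2.54% higher and 2.5% lower). In the POAH 5 members differed (1 higher and 4 lower), against 10.6% of all genes (5.8% and 4.84%), and in the PVN 3 (2 higher and 1 lower), against 5.6% (2.6% and 3%). Without the libraries that went against their label the counts were 3, 4 and 12, against 4.73, 6.42 and 10.3% of all genes, so the count in the PVN rested on those libraries. It was 7 without EHC replicate 1 of hour 2 alone (8.84% of all genes) and 6 without control replicate 3 of hour 2 alone (6.16%). In the POAH it was 13 without EHC replicate 3 of hour 0 (14.9%), 11 without EHC replicate 3 of hour 12 (15.3%), 10 without control replicate 4 of hour 12 (13.8%) and 3 without any of 10 others (5.34 to 9.06%), and in the nCPa it was 6 without control replicate 4 of hour 12 (11.8%) and 5 without EHC replicate 3 of hour 12 (7.17%).

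ENSGALG00010012124 was the only member called by sex in all 3 nuclei. In the nCPa it had 18.9 to 38.3 CPM in 12 females (median 28.4) and 23.1 to 76.7 CPM in 12 males (median 56.5), with females at -1.11 relative to males on the log2 scale (SE 0.14, adjusted p = 2.8e-05 from edgeR). In the POAH females had 19.0 to 75.9 CPM and males 21.4 to 107.9 CPM (-0.78, SE 0.21, adjusted p = 0.039), and in the PVN females had 22.2 to 85.1 CPM and males 16.2 to 78.5 CPM (-0.79, SE 0.20, adjusted p = 0.033). With the libraries against their label left out, the sexes did not overlap in the nCPa (up to 38.3 against at least 48.1 CPM) or the PVN (up to 32.0 against at least 40.7 CPM), and overlapped in the POAH (up to 46.7 against at least 36.5 CPM).

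Other calls by sex were of 1 nucleus each. ENSGALG00010005241 was higher in females in the PVN, at 5.54 to 26.4 CPM (median 12.6) against 3.28 to 15.2 CPM (median 6.06), a log2 difference of 1.06 (SE 0.23, adjusted p = 0.011 from edgeR). ENSGALG00010005525 was higher in females there as well, at 1.14 to 30.8 CPM (median 12.6) against 0.498 to 8.66 CPM (median 2.93), with 1.70 (SE 0.54, adjusted p = 0.091 from edgeR), and kept the call in 9 of 23 fits that left out 1 library. In the POAH ENSGALG00010010382 was lower in females, at 6.31 to 14.1 CPM (median 8.91) against 7.88 to 24.3 CPM (median 12.8), with -0.68 (SE 0.16, adjusted p = 0.016 from edgeR). There ENSGALG00010002681 was lower at -0.53, ENSGALG00010001827 lower at -0.47 and ENSGALG00010021084 higher at 0.47 (adjusted p = 0.041, 0.090 and 0.098 from edgeR). In the nCPa ENSGALG00010011657 was lower in females at -0.46 and ENSGALG00010012131 at -1.74 (adjusted p = 0.039 and 0.051 from edgeR).

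**Figure D4:**
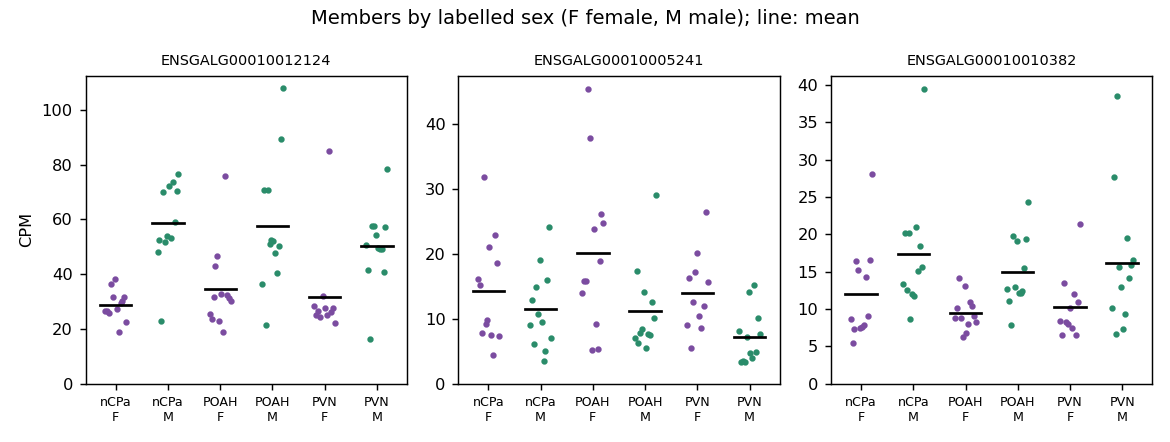
CPM of 3 members in libraries labelled female (F) and male (M), by nucleus, over all hours and treatments (points, with the mean as a line). ENSGALG00010012124 was lower in females in each nucleus, with ranges of the sexes that overlap in each. The points include the libraries against their sex label, and without those the sexes overlapped in the POAH only.

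The rule compared hours within a nucleus and never levels between nuclei, but its minimum of 5 CPM was a mean over all of them, and 10 members were under 5 CPM in at least 1 nucleus, 4 of them among those called below (ENSGALG00010012131, ENSGALG00010020196, ENSGALG00010021447 and ENSGALG00010024721). Their nucleus differences are not independent of the choice and are given as a description. For all members, the fits over all hours include the hour 12 libraries that chose them. A hour 12 rise that was unequal between nuclei therefore enters these fits. Of the 100 members, 15 differed between PVN and nCPa in edgeR (6 higher and 9 lower in the PVN), against 22.2% of all genes (11.3% and 10.9%). Between PVN and POAH 9 differed (all lower in the PVN), against 10% (3.82% higher and 6.18% lower), and between POAH and nCPa 16 differed (13 higher and 3 lower in the POAH), against 7.88% (4.38% and 3.5%). In all, 28 members, the 4 named above among them, were called in at least 1 of these comparisons and 0 in all 3. No share of all genes was counted for these 2 counts, so nothing is read from them. Among genes with at least 5 CPM in each nucleus, the counts were 13, 6 and 13 (PVN against nCPa, PVN against POAH, POAH against nCPa), against 26.7, 10.8 and 8.73% of those genes. The 71 libraries were treated as separate, although nuclei come from the same chicks. With the set of library numbers as a block the counts were 19, 19 and 15, against 25.4, 13.6 and 10.9% of all genes, and 1 of the 19 for PVN against POAH was higher in the PVN. On the libraries of hours 0 and 2 alone they were 7, 1 and 0, against 16.6, 1.4 and 0.211% of all genes, from fewer libraries. There, 21 members had an unadjusted p under 0.05 in edgeR for POAH against nCPa, against 2022 of 20363 genes. Without the 3 libraries of high mitochondrial share they were 13, 9 and 10, against 21.8, 11 and 4.01%. The count for PVN against POAH was 3 without set 58 (control, hour 12, 5.31% of all genes), and that for POAH against nCPa was 10 without set 5 (control, hour 0, 6.11%), 8 without set 42 (control, hour 12, 4.52%) and 9 without set 50 (EHC, hour 12, 4.78%).

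ENSGALG00010021447 had 0 to 15.6 CPM in the nCPa (median 1.92), 1.34 to 84.2 CPM in the POAH (median 3.35) and 0.542 to 3.72 CPM in the PVN (median 2.07). The POAH had 9 of 24 libraries over 10 CPM, the nCPa 1 and the PVN 0, so that the ranges overlapped at the low end and the high libraries were almost all of the POAH. Its mean in the POAH was 6.27, 5.74 and 19.6 CPM at hours 0, 2 and 12. The fitted difference was 1.74 on the log2 scale for POAH against nCPa (SE 0.34) and -2.09 for PVN against POAH (SE 0.36), and on hours 0 and 2 alone 0.998 and -1.42. ENSGALG00010012131 had the same order, at 0 to 29.4 CPM in the nCPa (median 3.45), 0.315 to 39.4 CPM in the POAH (median 6.82) and 0 to 17.9 CPM in the PVN (median 2.94), with fitted differences of 1.33 (SE 0.39) and -1.32 (SE 0.40). Both were also among the members whose hour 12 difference was least alike between nuclei, above 0.9 in the POAH.

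ENSGALG00010017591 and ENSGALG00010020196, the most closely correlated pair of members, were both lowest in the nCPa. ENSGALG00010017591 had 1.26 to 67.8 CPM in the nCPa (median 5.21), 3.97 to 112.1 CPM in the POAH (median 7.74) and 1.88 to 131.5 CPM in the PVN (median 13.5), with 1, 8 and 16 libraries over 10 CPM. It was higher in the PVN than in the nCPa by 2.06 (SE 0.44, adjusted p = 0.00083 from edgeR) and in the POAH than in the nCPa by 1.68 (SE 0.44, adjusted p = 0.017). ENSGALG00010020196 had fitted differences of 1.25 (SE 0.35) and 0.99 (SE 0.35) in the same comparisons.

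ENSGALG00010005525 had the reverse pattern, with 0 to 43.5 CPM in the nCPa (median 12.1), 0 to 13.9 CPM in the POAH (median 3.92) and 0.498 to 30.8 CPM in the PVN (median 4.37). It was lower in the POAH than in the nCPa at -1.54 (SE 0.35, adjusted p = 0.0059 from edgeR) and in the PVN at -1.04 (SE 0.35, adjusted p = 0.032). The members that follow here differed by less. ENSGALG00010028165 had 13.3 to 46.1 CPM in the nCPa (median 33.5), 19.5 to 58.9 CPM in the POAH (median 27.3) and 14.2 to 31.04 CPM in the PVN (median 24.1), and was lower in the PVN than in the nCPa at -0.44 (SE 0.10, adjusted p = 0.0015) and the POAH at -0.32 (SE 0.10, adjusted p = 0.040). ENSGALG00010028090 was lower in the PVN than in the nCPa at -0.67 (SE 0.17, adjusted p = 0.0040 from edgeR). Its hour 12 difference, which the rule used, was larger in the nCPa than in the PVN and is part of that fit. ENSGALG00010011223 was higher in the PVN and the POAH than in the nCPa at 0.63 and 0.66 (adjusted p = 0.0054 and 0.010 from edgeR). ENSGALG00010009583 was likewise higher at 0.64 and 0.48 (adjusted p = 0.0035 and 0.064 from edgeR).

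ENSGALG00010024721 had the largest fitted difference between nuclei, at -3.13 (SE 0.84) for PVN against nCPa and -2.53 (SE 0.87) for PVN against POAH, and -1.81 and -2.28 without the 3 libraries of high mitochondrial share. It was at 0 counts in 23 of 71 libraries, and its medians of 0.332, 0.340 and 0.372 CPM in the nCPa, POAH and PVN did not follow the fitted order. Of all libraries, 3 of the nCPa and 2 of the POAH were over 10 CPM, with 126.7 CPM as the highest, and the highest of the PVN was 6.32 CPM.

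**Figure D5:**
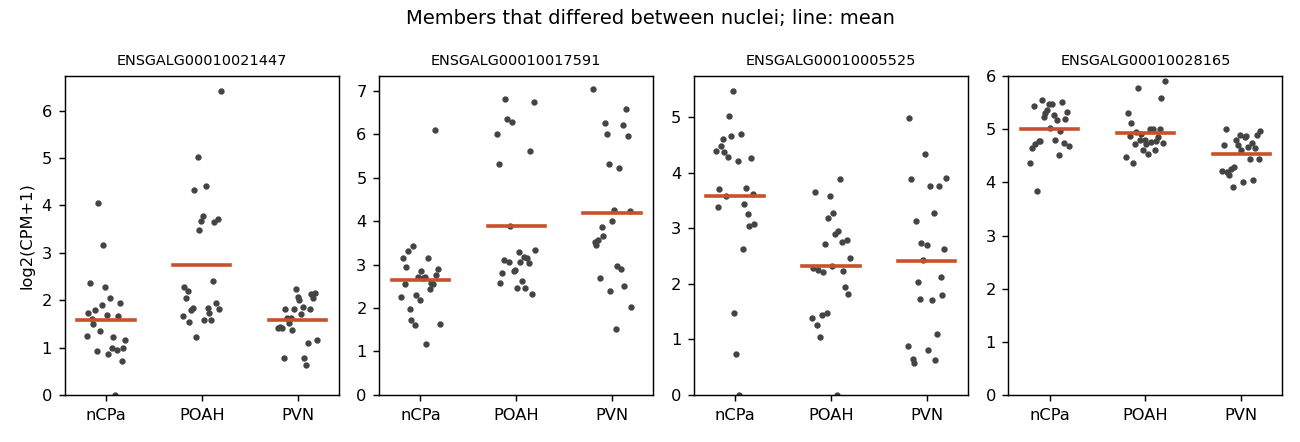
log2(CPM+1) of 4 members called between nuclei in edgeR, with 1 point for each library over all hours and treatments and the mean as a line. ENSGALG00010021447, under 5 CPM in the nCPa and the PVN, is shown as a description only. In ENSGALG00010021447 and ENSGALG00010017591 the higher means of the POAH, and of the PVN for the second, come with a tail of high libraries. For ENSGALG00010028165 the PVN was lower on average, with its range inside that of the nCPa.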

How the data were processed

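The authors deposited raw counts, whole numbers for 30108 Ensembl release 110 genes in 71 columns, with 0 columns left unused here. The libraries were stranded and ribosome-depleted. Per the methods of the study, the authors used Trimmomatic 0.39 for adapters, HISAT2 2.2.1 for alignment to a broiler assembly, SAMtools 1.10 for unique matches, biobambam2 2.0.95 for duplicates, which can compress the counts of abundant genes, and featureCounts 2.0.1.

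From these, CPM on library totals gave the rule for members. For tests, genes with more than 1 CPM in at least 4 libraries were kept (20351 to 20363 genes in a test, with all 100 members). Shares of all genes called or under an unadjusted p, and medians of their fitted fold changes, are of these tested genes. Some of them were under the mean of 5 CPM that members needed, so they are not matched to members. Other shares of all genes are of the 12786 genes with that mean. Counts were normalized by TMM and fitted with edgeR 4.0.16 in R 4.3.3 (glmQLFit with its newer dispersion method), with sex as labelled as a covariate. The hour 12 test of treatment used the hour 12 libraries of the nucleus, other tests within a nucleus all its libraries, and tests of nuclei all 71. A gene was called where its p, adjusted by Benjamini and Hochberg within each of 18 tests, was 0.1 or less. Standard errors came from the F statistic of each log2 fold change. By the design the study gives, each chick gave a sample of every nucleus, so libraries of a group come from different chicks, though no label names the chick. Nothing says whether they shared a batch, so p-values measure the spread between these samples. DESeq2 1.42.0 was an alternative, beside its size factors, no filter, no sex term, libraries left out and other forms of the rule. The edgeR fit, not DESeq2, was first run on simulated counts with known fold changes. Figures were drawn in Python 3.11.15 with matplotlib 3.10.9.

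Members, lists and tests were chosen with earlier results of these data known. Genes were named by rule: the 10 highest scores, 3 genes on each side of the last place, members called in a test (up to 5 in each direction), and the 5 most and 5 least alike between nuclei. Runs without the 3 libraries over 3% mitochondrial and on hours 0 and 2 alone were added after seeing the data. Replicate numbers only name a library. Libraries of 1 set of numbers correlated over genes with a median of 0.32 (-0.16 to 0.72) in deviations from group means.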

Additional observations from a re-analysis of the deposited data

Results flagged for a closer look

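Groups of 4 libraries were searched for 1 library apart from the other 3 (Dixon's ratio over its 95% critical value), for the mean over members and the first 10 members. Of 187 groups 12 were picked out, and chance alone picks out about 1 in 20 groups. The mean of the members in the POAH of EHC chicks at hour 0 was 4.46 in replicate 2 and 4.17 to 4.22 in the others.

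ENSGALG00010002949 was picked out in EHC chicks at hour 2 in each nucleus, always in replicate 3, labelled female: 5.93 CPM against 58.02 to 77.9 in the nCPa, 4.71 CPM against 63.96 to 75.9 in the POAH and 2.46 CPM against 41.6 to 63.1 in the PVN. These 3 libraries have consecutive numbers. ENSGALG00010004063 was low in control replicate 1 of hour 2, at 4.43 CPM against 21.1 to 27.2 in the POAH and 0.721 CPM against 15.9 to 20.6 in the PVN.

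In control nCPa at hour 12, replicate 4 was low in ENSGALG00010002599 (17.2 CPM against 30.4 to 31.2) and ENSGALG00010008261 (2.91 CPM against 16.8 to 22.7). ENSGALG00010008261 was high in EHC nCPa replicate 1 of hour 12 (41.9 CPM against 23.4 to 25.8) and ENSGALG00010002616 in control POAH replicate 4 of hour 12 (36.6 CPM against 24.3 to 25.2). ENSGALG00010026053 was low in control PVN replicate 4 of hour 0 (10.8 CPM against 19.8 to 21.7) and ENSGALG00010018549 in control PVN replicate 4 of hour 12 (8.86 CPM against 13.9 to 15.2).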

How the results depend on the processing

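Of the 100 members the rule chose 94 and 82 again with a pseudocount of 0.1 and 5, 91 without mitochondrially encoded genes, 69 with TMM library sizes, 60 with a minimum of 1 CPM, 49 with no minimum, 41 with medians, 26, 18, 24 and 23 on control, EHC, female and male libraries alone, 72 to 97 without 1 library and 56 to 96 without 1 set of library numbers, and 56 without the 3 libraries over 3% mitochondrial (chosen after seeing the data). DESeq2 called 7 members in the nCPa (1.65%) and 1 in the PVN (1.1%) for EHC against control at hour 12, 1 in the nCPa over all hours (0.177%), 8, 3 and 2 in the nCPa, POAH and PVN for treatment by hour 12 (3.34, 1.59 and 1.22%), and 11 in the POAH by sex (12.4% of all genes), where edgeR's earlier quasi-likelihood fit (chosen after seeing the data) called 3 (8.08%). With all libraries of a nucleus in 1 model, 5 were called in the nCPa at hour 12 (2.11% of all genes), and with no sex term 1 in the PVN (0.251%). By sex in the PVN, 12 were called without the libraries against their label (10.3%). With the replicate block (set of library numbers, which only part of the pairs bear out) PVN against POAH gave 19 (13.6%) in place of 9, and PVN against nCPa and POAH against nCPa gave 19 (25.4%) and 15 (10.9%). Without the libraries over 3% mitochondrial, POAH against nCPa gave 10 (4.01% of all genes). Treatment by hour 12 in the nCPa then rested on 1 control library of hour 12, so no count is given. Hours 0 and 2 alone (also added) gave 7, 1 and 0 for PVN against nCPa, PVN against POAH and POAH against nCPa. The shares of all genes were 16.6, 1.4 and 0.211%.

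Leaving out 1 library or set gave 0 to 6, 0 and 0 to 1 members at hour 12 (nCPa, POAH, PVN), 0 to 2, 0 and 0 over all hours, 0 to 9, 0 to 2 and 0 to 1 for treatment by hour 12, 2 to 6, 3 to 13 and 2 to 7 by sex, 0 for sex by hour 12, and 11 to 20, 3 to 12 and 8 to 19 for PVN against nCPa, PVN against POAH and POAH against nCPa. Of 51 calls of a member, 26 were kept whichever was left out, and 0 changed direction under any alternative run. The causes were not tested. The libraries against their sex label are all of hour 2, so the hour 12 tests of treatment had no such alternative. Depth limits the low members: 5 CPM was 4.55 counts in the smallest library.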
